A study of Mus musculus with 6 samples.

Results

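Aldo-keto reductases and aldehyde dehydrogenases are enzymes that clear reactive aldehydes. The genes described here were chosen by name: every gene on the array whose symbol starts with Akr1, Akr7 or with Aldh and a digit. There were 37 such genes of 22502, carried by 43 probes of 55681 and by 52 spots of 59305 other than control spots. The 1G11 line is a mouse microvascular endothelial cell line, labeled as strain C57BL/6NCrLBR, and the comparison was between 1G11-mock cells and 1G11-SOD3 cells, which overexpress superoxide dismutase-3, an extracellular enzyme that removes superoxide. Before RNA was taken, both lines had spent 6 h in N202.1A conditioned medium, from a mouse mammary cancer line, so no array shows either line without it. Each line was measured on 3 single-color arrays, and the comparison asks how SOD3 overexpression changes transcription in endothelial cells exposed to a tumor cell milieu. The study describes the replicates as independent experiments, and whether either line is 1 clone is not given in the sources used here. All 6 arrays lay on 1 slide, the 1G11-mock arrays in one row and the 1G11-SOD3 arrays in the other, so cell line and slide row cannot be told apart.

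Aldo-keto reductases use NADPH to turn aldehydes and ketones into alcohols. The Akr1b members act on glucose, on lipid peroxidation products and on retinaldehyde, and many Akr1c members act on steroids and prostaglandins. Aldehyde dehydrogenases take the other way and oxidize aldehydes to carboxylic acids with NAD or NADP: ALDH1A enzymes make retinoic acid, ALDH2 clears acetaldehyde, ALDH3 enzymes act on fatty and aromatic aldehydes, and further members work in amino acid breakdown, proline synthesis and folate metabolism. Aldehydes that form from membrane lipids under oxidative stress, to which the endothelium is exposed, are substrates of both families.

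The 6 arrays had 34.2% to 43.8% of their spots well above background, with no saturated spot. A block in the middle of the array read dim on the 1G11-mock arrays. A smooth surface fitted to the position of the spots gave a median difference, 1G11-SOD3 minus 1G11-mock, of 1.52 on the log2 scale in that block and of 0.27 over the rest of the array. Members printed in the middle are therefore described apart, and a probe printed at both places has 2 entries, so that the 43 probes give 44 entries. There are 38 entries of 34 genes outside the middle and 6 entries of 6 genes in it. Position-adjusted values, from which this surface had been taken off, are given beside the results that turn on place. The surface was fitted and taken off before quantile normalization, so it also holds differences in brightness between whole arrays. Its values are not on the scale of the differences reported below and cannot be subtracted from them. The surface also raised 1G11-mock spots that were at background: after it, 1221 of the 6435 entries in the middle were called lower, and 1117 of these were well above background on no 1G11-mock array. The probe of Sod3 itself lies in the middle, where it read 12.04 ± 1.95 in 1G11-mock cells and 16.31 ± 0.05 in 1G11-SOD3 cells (log2 intensity, SD, n = 3; adjusted p = 0.00766 by limma, and 0.0136 with a difference of 2.65 after position adjustment).

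**Figure D1:**
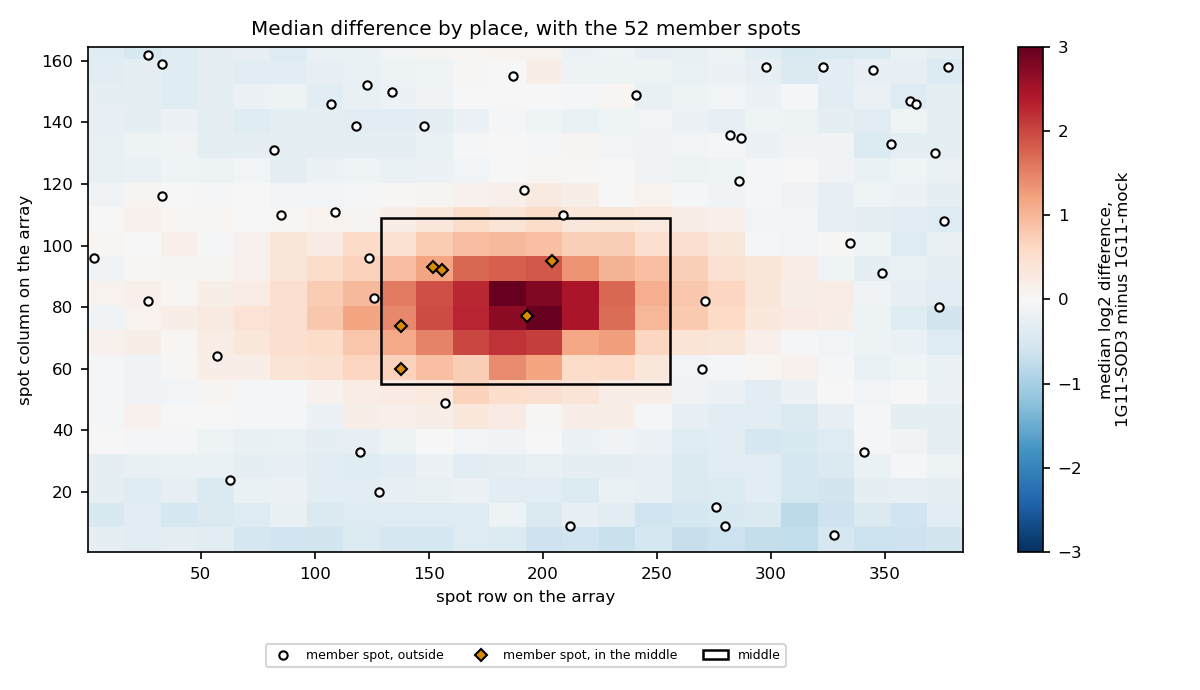
Median log2 difference, 1G11-SOD3 minus 1G11-mock, over small blocks of the array (color), by spot row (x axis) and spot column (y axis), with the 46 member spots outside the middle as circles and the 6 in it as diamonds. The differences are highest inside the rectangle that marks the middle, and some member spots lie close to its edge.

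Of the endothelial markers, Kdr, Vwf and Eng were well above background on all 6 arrays, while Cdh5, Tek, Tie1, Emcn and Erg were so on none. The study describes regular checks of the line by staining for VE-cadherin, the protein that Cdh5 encodes. Such staining shows protein, whereas the array reads RNA. Over the 11 endothelial markers with a probe outside the middle, of 12 listed, the log2 of the summed intensity ran from 14.3 to 14.9 in 1G11-mock and from 13.8 to 14.1 in 1G11-SOD3 cells. Vwf was called lower (-1.65, and -1.35 after position adjustment). Kdr and Eng were also lower with no overlap but were not called (-0.50 and -1.05, adjusted p = 0.299 and 0.0835, limma). After position adjustment they differed by -0.44 and -0.70 (adjusted p = 0.274 and 0.142, limma). Egfl7 was called higher at 1.82, but not after position adjustment (0.90, adjusted p = 0.101, limma). Of 8 fibroblast and mural markers, 5 (Pdgfrb, Col1a1, Col1a2, Lum and Acta2) were called higher in 1G11-SOD3 cells, and the list's summed log2 level ran from 14.4 to 15.1 in 1G11-mock and from 15.4 to 17.4 in 1G11-SOD3 cells. The highest of these sums, on 1G11-SOD3 replicate 3, held a Dcn level of 17.07, where the other 1G11-SOD3 arrays read 13.52 and 13.58 and the 1G11-mock arrays 14.04 to 14.78. Rgs5, well above background on no array, was lower with no overlap (-0.54, adjusted p = 0.362, limma). None of the 6 epithelial markers, which summed to 16.04 to 16.77 against 15.44 to 16.36, was called, and none of the 4 leukocyte markers, which summed to 11.1 to 11.5 against 10.8 to 11.1 (limma, with 0 of either list at an unadjusted p under 0.05). In each of these lists 1 gene was well above background on all 6 arrays, Krt19 and Cd3e, and it made up most of the sum. The part of these marker levels in the differences below was not tested. In bulk RNA, fewer cells of a type and less RNA per cell cannot be told apart.

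The members on which the results turn are read by the following probes of 60 bases, of which the first 30 are shown, 5′ to 3′. Capitals mark the 23 bases that the stretches shown for the pair of Aldh3a1 probes have in common. The positions after each name are where the probe starts in the transcript it was designed on.
Aldh6a1, first probe, from base 3118: taatcataatcaacagatttgaccagctac
Aldh6a1, second probe, from base 2152: tcaggatgaagtgataagttagcttttagt
Aldh3a1, first probe, from base 1665: cctccccCCTCTTGTTCTGCTGTTTGCTGA
Aldh3a1, second probe, from base 1672: CCTCTTGTTCTGCTGTTTGCTGAgcacaga
Akr1b10, probe outside the middle, from base 1080: tcttcactgatatgcaacccgctcctactg
Akr1b10, probe in the middle, from base 1184: catgttcaactagaagcagactgtcacagg
Akr1b8, printed at both places, from base 1187: aacggacatctccttcactaatttgacctg

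The Aldh3a1 probes share 53 bases and so measure nearly the same stretch, whereas those of Aldh6a1 and of Akr1b10 do not overlap. In the array annotation, whose build is not given, the first Aldh6a1 probe lies on chromosome 12 between 85771835 and 85771894, the first Aldh3a1 probe on chromosome 11 between 61031857 and 61031916, the Akr1b10 probes on chromosome 6 from 34346689 to 34346748 and from 34346793 to 34346852, and the Akr1b8 probe on chromosome 6 from 34318338 to 34318397. These positions were not matched to exons or untranslated regions here. Between probes of different members, laid side by side without gaps, at most 31 of 60 bases matched.

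Outside the middle, 1 of 38 member entries was called, at more than 2-fold and a limma adjusted p under 0.05, and it was lower in 1G11-SOD3 cells. Over all 49526 entries outside the middle 1.86% were called, 0.664% higher and 1.19% lower, so the members' share is close to that of the array. With entries of smaller fold included, 2 of the 38 had an adjusted p under 0.05, against 2.01% of all entries. The 3 values of one line lay entirely below those of the other in 7 entries that were lower and 1 that was higher in 1G11-SOD3 cells, against 11.4% and 8.27% of all entries. The median difference of the 38 entries was -0.09 on the log2 scale, with a range from -1.57 to 0.83, beside -0.06 for all entries outside the middle. Among the 22 entries of 19 genes that were well above background on all 6 arrays, the median was -0.19, beside -0.17 for the 15248 such entries on the array, of which 4.56% were called. In 5 of the 22 all 1G11-SOD3 values lay below all 1G11-mock values and in 0 above them, against 20.6% and 8.13% of those 15248. Of the other 16 entries, 14 of 13 genes were well above background on no array, as were 54.6% of all entries outside the middle. The 2 entries that passed the adjusted p were a probe of Aldh6a1 and a probe of Aldh3a1.

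**Figure D2:**
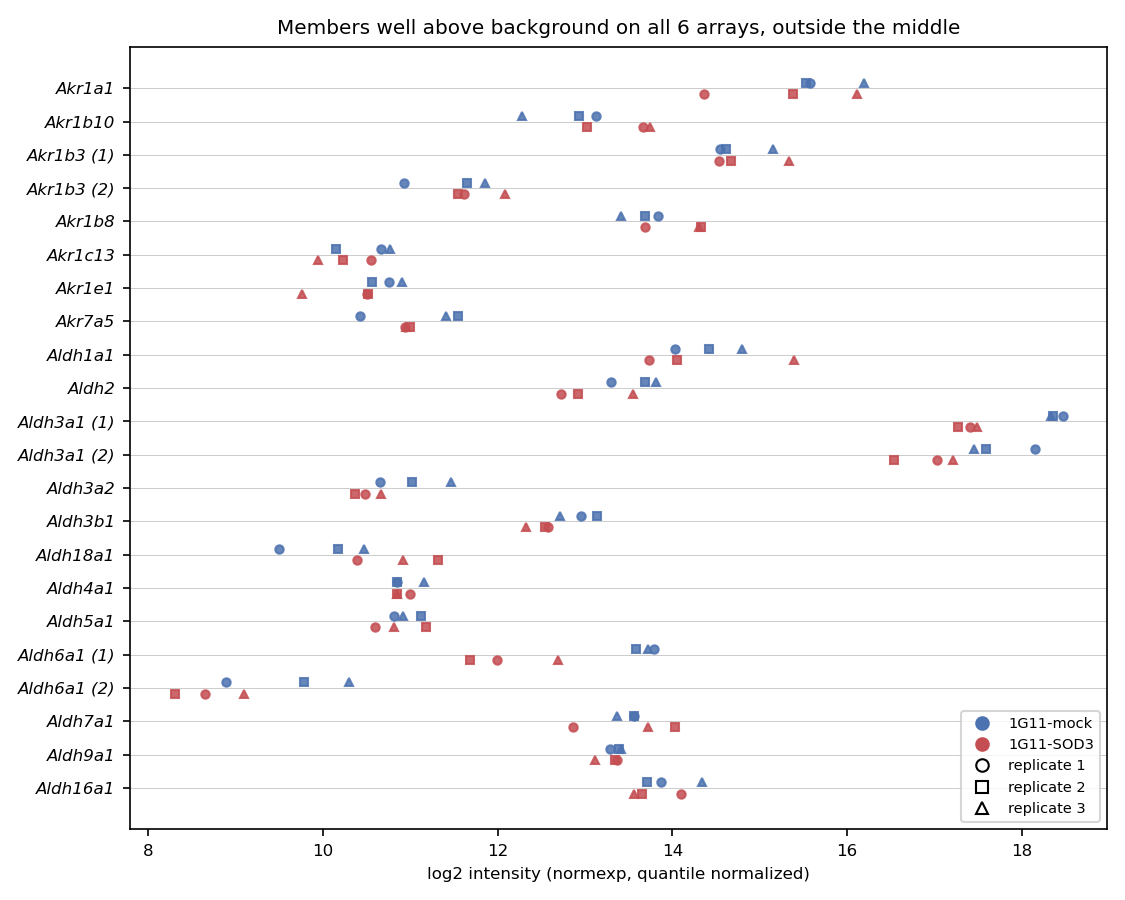
Log2 intensity (x axis) of the 22 member entries outside the middle that were well above background on all 6 arrays, with 1G11-mock in blue, 1G11-SOD3 in red and a marker shape for each replicate number. Numbers in brackets tell probes of one gene apart. The 1G11-SOD3 values lie below all 1G11-mock values for Akr1e1, both Aldh3a1 probes, Aldh3b1 and the first Aldh6a1 probe, and above them for no entry.

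Aldh6a1 encodes the mitochondrial methylmalonate semialdehyde dehydrogenase of valine and pyrimidine breakdown, and it was the member called outside the middle. Its first probe read 13.78, 13.58 and 13.72 in 1G11-mock and 11.99, 11.68 and 12.69 in 1G11-SOD3 cells (log2 intensity, replicates 1 to 3). The highest 1G11-SOD3 value lay well below the lowest 1G11-mock value. The transcript fell by 1.57 on the log2 scale, that is 2.97-fold, with a standard error of 0.275, a 95% interval of the difference from -2.18 to -0.97 and an adjusted p of 0.0107 (limma). The second probe read 8.89, 9.78 and 10.30 against 8.65, 8.30 and 9.09. The lines overlapped there, since 1G11-mock replicate 1 lay below 1G11-SOD3 replicate 3, and the difference of -0.97 did not pass (adjusted p = 0.208, limma). It passed without 1G11-mock replicate 1, at -1.37 and an adjusted p of 0.0408. The first probe was no longer called without 1G11-SOD3 replicate 1 (-1.496, adjusted p = 0.0513), after position adjustment (-0.96, adjusted p = 0.0933) or with the processed signal (-0.81, adjusted p = 0.116).

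Aldh3a1, which oxidizes aromatic aldehydes and medium-chain fatty aldehydes, had the other entry with an adjusted p under 0.05. Its first probe read 18.47, 18.35 and 18.33 in 1G11-mock and 17.41, 17.27 and 17.48 in 1G11-SOD3 cells. The values of each line lay within a narrow range and the lines were well apart. The difference was -0.99 on the log2 scale (standard error 0.211, adjusted p = 0.0281, limma), or 1.99-fold, just under the fold that a call required. The probe was called lower with median pixel intensity (-1.02), cyclic loess (-1.09) and the deposited table (-1.02), and its adjusted p was above 0.05 with an offset of 16 (0.0769), scaling to the 75th percentile (0.0595) and the processed signal (0.0582). The overlapping second probe read 18.15, 17.59 and 17.45 against 17.02, 16.54 and 17.21. It too had no overlap between the lines, with a difference of -0.81 that did not pass (adjusted p = 0.170, limma). After position adjustment both probes were called lower, at -1.10 (adjusted p = 0.0218) and -1.18 (adjusted p = 0.0260). Leaving out any 1 array moved the adjusted p of the first probe above the threshold, to between 0.0598 and 0.128.

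The remaining ALDH3 genes that were measured were also below 0, without passing. Of the 15248 entries outside the middle that were well above background on all 6 arrays, 9798 were below 0. Of the same entries, 20.6% were lower with no overlap. Aldh3a2, the microsomal fatty aldehyde dehydrogenase, differed by -0.54 (adjusted p = 0.366), and Aldh3b1, which acts on lipid-derived aldehydes at membranes, by -0.45 with no overlap between the lines (adjusted p = 0.392, limma). Both probes of Aldh3b2 were well above background on no array.

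Among the aldehyde and aldose reductases, no entry outside the middle was called, and the 6 entries of 5 genes ran from -0.48 to 0.70. Akr1b10, which reduces retinaldehyde and lipid aldehydes, is a gene that the study lists as upregulated in 1G11-SOD3 cells. Its probes gave different differences here, and only the one in the middle was called. The probe outside the middle read 13.13, 12.93 and 12.28 in 1G11-mock and 13.66, 13.02 and 13.74 in 1G11-SOD3 cells. The lines overlapped, through 1G11-mock replicate 1 and 1G11-SOD3 replicate 2. The difference was 0.70 with a 95% interval from 0.06 to 1.33 before adjustment over the array, and an adjusted p of 0.295 (limma). The surface at that spot stood at 1.17, far above the median outside the middle, and the position-adjusted difference was -0.070 (adjusted p = 0.891). The probe of Akr1b10 in the middle is given with the other middle spots below.

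Akr1b8, a close relative of Akr1b10 that also reduces lipid aldehydes, was printed 10 times, 9 of them outside the middle. The mean of these 9 copies was 13.84, 13.68 and 13.41 in 1G11-mock and 13.69, 14.33 and 14.30 in 1G11-SOD3 cells. Replicate 1 of 1G11-SOD3 fell among the 1G11-mock values, and the difference of 0.46 did not pass (95% interval -0.09 to 1.02, adjusted p = 0.447, limma). Single copies gave differences from -0.06 to 1.06, and from 0.18 to 0.62 after position adjustment. The position-adjusted difference of the 9 copies together was 0.40 (adjusted p = 0.311, limma). Akr1a1, the general aldehyde reductase, read 15.57, 15.53 and 16.19 against 14.36, 15.38 and 16.11, a difference of -0.48 (adjusted p = 0.634, limma) in which 1G11-SOD3 replicate 1 stood low. Akr1b3, the aldose reductase that makes sorbitol from glucose, differed by 0.08 and 0.27 on its 2 probes (adjusted p = 0.936 and 0.730, limma). Akr1b7 was well above background on no array.

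**Figure D3:**
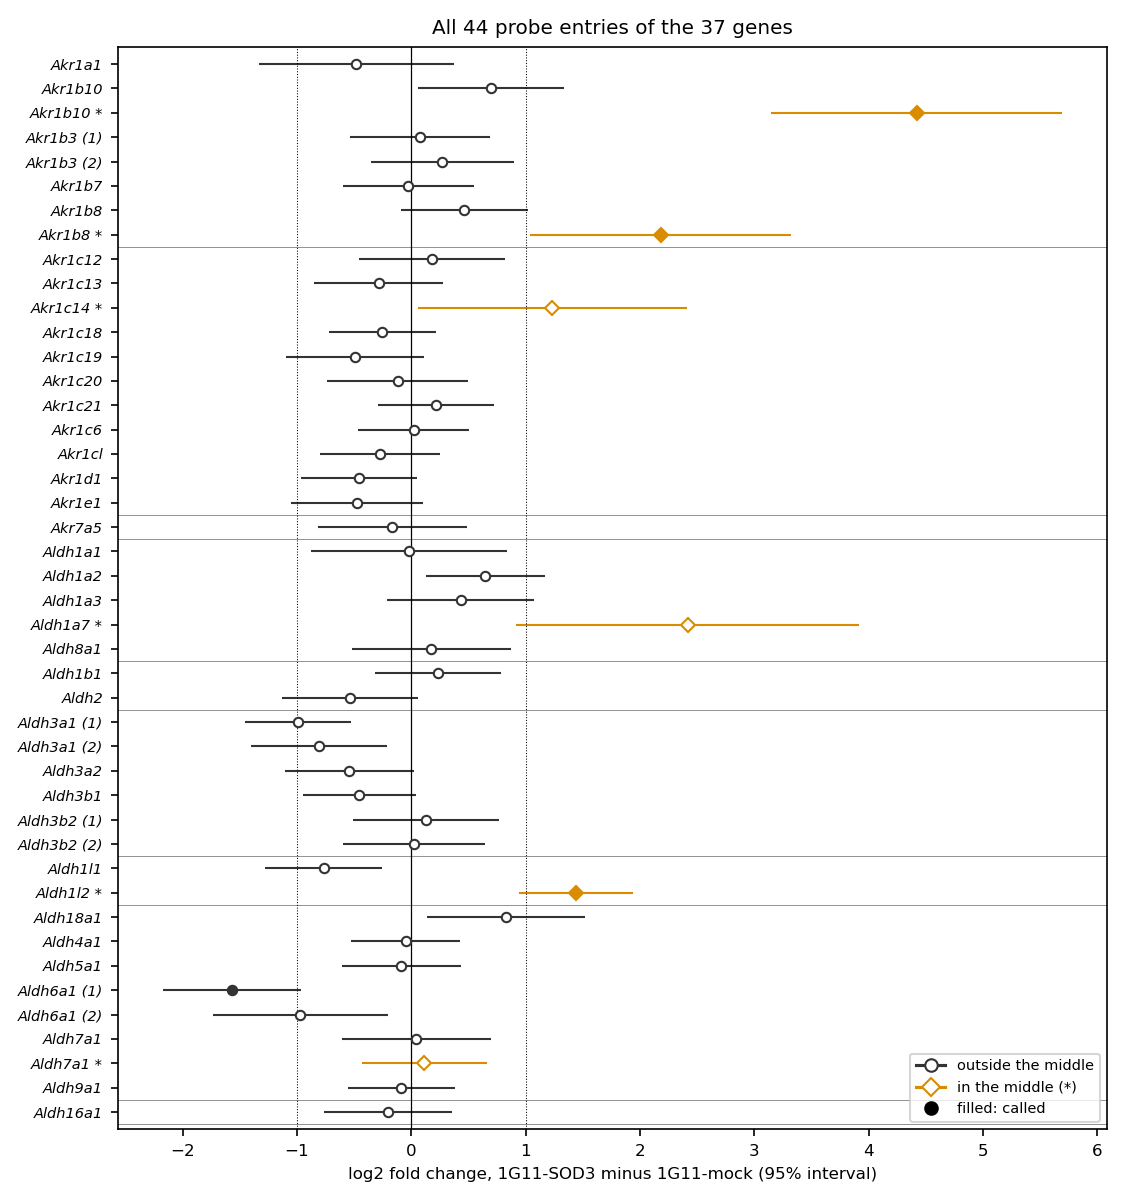
Log2 fold change, 1G11-SOD3 minus 1G11-mock, with its 95% interval (x axis), for all 44 entries of the 37 genes grouped by role, with circles outside the middle and diamonds with an asterisk in it. Filled symbols were called, and dotted lines mark a 2-fold change. Outside the middle only the first Aldh6a1 probe is filled, while 3 of the 6 middle entries are.

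The hydroxysteroid dehydrogenases and their kin, which include the Akr1c genes, Akr1cl, the steroid reductase Akr1d1 and the anhydrofructose reductase Akr1e1, were mostly dim in these cells. Of 10 entries outside the middle, 8 were well above background on no array. Akr1c13 read 10.67, 10.15 and 10.76 against 10.55, 10.23 and 9.95, a difference of -0.29 (adjusted p = 0.676, limma). Akr1e1 read 10.76, 10.56 and 10.90 against 10.51, 10.52 and 9.77, with no overlap and a difference of -0.48 that did not pass (adjusted p = 0.452, limma). Akr7a5, the aflatoxin aldehyde reductase, differed by -0.17 (adjusted p = 0.850).

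Of the retinaldehyde dehydrogenases, Aldh1a1 was the one measured on all arrays outside the middle. It read 14.03, 14.42 and 14.80 in 1G11-mock and 13.73, 14.06 and 15.39 in 1G11-SOD3 cells, so that the 1G11-SOD3 values lay on both sides of the 1G11-mock values. The difference was -0.02 with a 95% interval from -0.88 to 0.84 (adjusted p = 0.988, limma), which leaves room for a change of nearly 2-fold either way, and its sign turned under scaling to the 75th percentile (0.12) and under cyclic loess (0.014). Aldh1a2 and Aldh1a3, the other retinoic acid producing enzymes, were well above background on no array, and the difference of 0.65 for Aldh1a2 (adjusted p = 0.219), with no overlap between the lines, is one between dim spots. Aldh8a1, which was only grouped with these enzymes here, was well above background on 5 of 6 arrays and differed by 0.18.

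Aldh2, the mitochondrial enzyme that clears acetaldehyde and 4-hydroxynonenal, read 13.30, 13.68 and 13.82 against 12.72, 12.92 and 13.55, a difference of -0.54 (95% interval -1.13 to 0.06, adjusted p = 0.407, limma). Its mitochondrial relative Aldh1b1 was well above background on no array. Aldh1l1, the cytosolic formyltetrahydrofolate dehydrogenase, was well above background on 3 1G11-mock and 1 1G11-SOD3 array. It read 8.40, 8.54 and 8.78 against 8.02, 7.85 and 7.54 with no overlap, and the difference of -0.77 did not pass (adjusted p = 0.122, limma).

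The members in amino acid, amine and carnitine metabolism were all well above background on all 6 arrays outside the middle, and none but Aldh6a1 was called. Aldh18a1, which makes the proline precursor pyrroline-5-carboxylate, had the highest difference of any entry outside the middle. It read 9.50, 10.17 and 10.47 against 10.39, 11.32 and 10.92, which is 0.83 with an adjusted p of 0.236, and 0.97 with an adjusted p of 0.0573 after position adjustment (limma). Aldh4a1 in proline breakdown, Aldh5a1 in GABA breakdown, Aldh7a1 in lysine breakdown and Aldh9a1 in carnitine synthesis differed by -0.05, -0.09, 0.04 and -0.09. Aldh16a1, a member whose role is less well known, differed by -0.20 (adjusted p = 0.776).

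In the middle all 6 entries were above 0 and 3 were called higher, against 11.9% of the 6435 entries there called higher and 12% called in all. The lines did not overlap in 4 of the 6, all higher in 1G11-SOD3 cells, against 27.7% of all entries there. Of these 6, Akr1b8, Aldh1a7 and Akr1c14 were well above background on all 6 arrays, of which 1 was called higher and 2 had no overlap, and among all such entries in the middle 24.1% were called higher and 59.6% were higher with no overlap. The median of the 6 was 1.81 and that of all entries in the middle 0.18. Only 1195 of the 6435 were well above background on all 6 arrays, so these medians do not compare entries of like brightness. The surface in the middle had a median of 1.52. The Akr1b10 probe there read 9.89, 7.55 and 7.72 in 1G11-mock and 13.30, 11.80 and 13.33 in 1G11-SOD3 cells, and of the 1G11-mock arrays 1 had it well above background. The difference was 4.42, or 21.4-fold (standard error 0.579, adjusted p = 0.00235, limma). The surface at that spot stood at 3.29, and the position-adjusted difference was 1.41, still called (adjusted p = 0.0329). The probe outside the middle, which starts closer to the 5′ end of the same transcript, gave the much smaller 0.70.

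The Akr1b8 copy in the middle allows the same sequence to be read at both places. It read 13.21, 12.54 and 10.55 in 1G11-mock and 14.26, 14.23 and 14.35 in 1G11-SOD3 cells. Against the mean of the 9 copies outside, it stood at -0.63, -1.15 and -2.86 on the 1G11-mock arrays and at 0.57, -0.10 and 0.05 on the 1G11-SOD3 arrays. The copy in the middle was thus low on each 1G11-mock array, most of all on replicate 3, and near the other copies on the 1G11-SOD3 arrays. Its difference of 2.18 was called (adjusted p = 0.0469, limma), while that of the 9 copies was 0.46. The call was lost under 7 of 13 alternatives, at an adjusted p of 0.109 with no background correction, 0.0643 with an offset of 16, 0.0518 with median pixel intensity, 0.0531 with the processed signal, 0.0585 with cyclic loess, 0.0522 with the deposited table and 0.161 after position adjustment, where the difference was 0.98. Leaving out 1 array gave 1.40 to 2.74. The call was lost without 1G11-mock replicate 2 (adjusted p = 0.110) and without 1G11-SOD3 replicate 1, 2 or 3 (adjusted p = 0.127, 0.0916 and 0.157, limma). Across the 194 probes printed 10 times, the SD of the difference among copies of one probe went from 0.521 to 0.198 with the surface taken off.

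**Figure D4:**
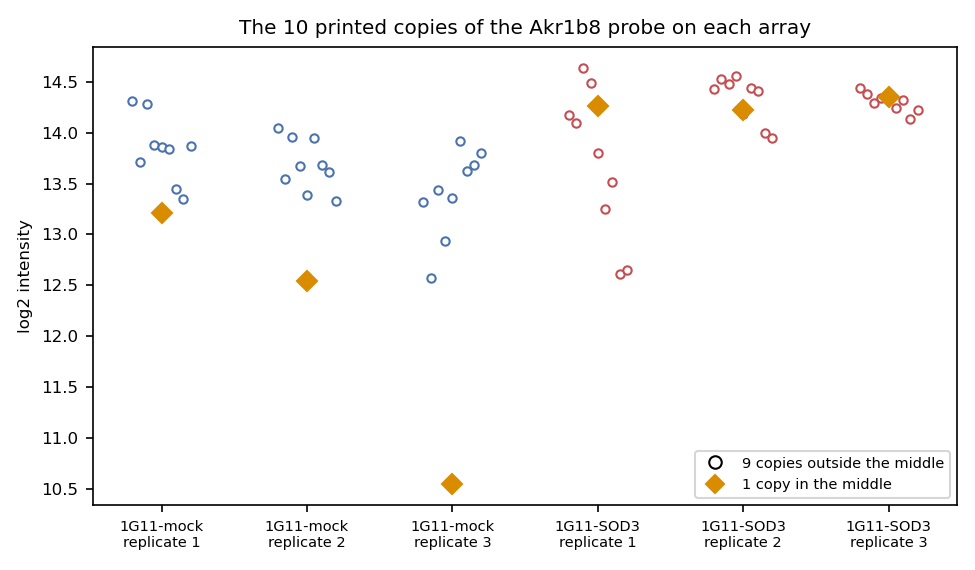
Log2 intensity (y axis) of the 10 printed copies of the Akr1b8 probe on each of the 6 arrays (x axis), with 9 copies outside the middle as open circles and the copy in the middle as an orange diamond. The diamond lies below every open circle on the 1G11-mock arrays and within their range on the 1G11-SOD3 arrays.

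Aldh1l2, the mitochondrial formyltetrahydrofolate dehydrogenase, read 7.49, 7.49 and 7.88 in 1G11-mock, where it was well above background on no array, and 9.09, 8.91 and 9.20 in 1G11-SOD3 cells, where it was so on all 3. The measured difference was 1.44 and was called (adjusted p = 0.00602, limma). Set against the lowest signal well above background on each 1G11-mock array, the 1G11-SOD3 mean stood 1.97-fold higher. That floor was taken over the whole array and makes no allowance for the dim middle, so it is not a lower bound for the cells. The position-adjusted difference was 0.39 (adjusted p = 0.600), and the call was also lost with no background correction (0.98, below the fold required) and with the processed signal (adjusted p = 0.0720). Aldh1a7, a close relative of Aldh1a1, read 14.23, 14.28 and 11.18 against 15.30, 15.26 and 16.38, with 1G11-mock replicate 3 far below the other arrays. Its difference of 2.42 did not pass (adjusted p = 0.0949, limma) and was 1.04 after position adjustment. Akr1c14, a hydroxysteroid dehydrogenase, differed by 1.23 (adjusted p = 0.319) and by -0.09 after position adjustment. The Aldh7a1 probe in the middle was well above background on no array.

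The genes that surround retinoic acid synthesis were counted beside the members. Of 24 retinoid genes, 22 had a probe outside the middle, 1 was called lower and none higher, and their median difference was 0.0074. The called gene was Cyp26b1, which encodes an enzyme that breaks down retinoic acid. It read 12.47, 12.82 and 13.71 in 1G11-mock and 9.99, 10.13 and 9.94 in 1G11-SOD3 cells. All 1G11-SOD3 values lay far below all 1G11-mock values, and the transcript fell by 2.98 on the log2 scale (standard error 0.303, adjusted p = 0.000491, limma). Cyp26b1 was called under all 15 alternative settings tried, at -3.02 to -2.66, and without any 1 array, at -3.25 to -2.63. Dhrs3, of the same list, was higher by 1.40 with no overlap but was not called (adjusted p = 0.0636, limma). After position adjustment it was called higher, at 1.51 (adjusted p = 0.0237).

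Of 17 genes of carbonyl and polyol metabolism, 16 had a probe outside the middle, 1 was called higher and 1 lower, and the median difference was -0.03. Cryl1, the L-gulonate dehydrogenase, read 9.78, 9.57 and 7.78 against 11.45, 11.19 and 10.93, where 1G11-mock replicate 3 was the lowest. It rose by 2.14 (adjusted p = 0.0239, limma), and by 1.15 after position adjustment (adjusted p = 0.0387). Leaving out 1 array at a time gave 1.52 to 2.53, and the call was lost without 1G11-mock replicate 2 (adjusted p = 0.0554) and without 1G11-SOD3 replicate 1, 2 or 3 (adjusted p = 0.0918, 0.0542 and 0.0731, limma). Cbr1, the main cytosolic carbonyl reductase, read 12.22, 12.01 and 12.94 against 10.72, 10.60 and 11.56. It fell by 1.43 (adjusted p = 0.0362, limma), and the call was kept without 1G11-SOD3 replicate 3 and lost without any 1 of the other arrays, at adjusted p from 0.0602 to 0.140. It was also lost under 7 of 15 alternatives, position adjustment among them (-1.11, adjusted p = 0.110).

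Several aldo-keto reductases are targets of NRF2, a transcription factor activated by oxidative stress, and a list of 19 further genes held other targets, Nfe2l2, which encodes NRF2 itself, and Keap1, its inhibitor. Of these, 18 had a probe outside the middle, Keap1 not among them. None was called, and their median difference was -0.16. The 1 gene with an adjusted p under 0.05 was Tkt, at -0.98 (adjusted p = 0.0495, limma), just under the fold required. After position adjustment it differed by -0.36 (adjusted p = 0.352). In limma 7 of the 18 had an unadjusted p under 0.05, as had 9 of the 16 carbonyl and polyol genes and 3 of the 22 retinoid genes, against 12.7% of all entries outside the middle and 24.2% of those well above background on all 6 arrays. Of the 7, Gclm and Me1 were higher and the others lower in 1G11-SOD3 cells. After position adjustment Gclm differed by 0.34 (adjusted p = 0.424) and Me1 by -0.032 (adjusted p = 0.951, limma), and the others stayed lower. Nfe2l2, named here after its values were seen, read 14.96, 14.73 and 14.56 against 13.11, 13.68 and 14.13. The lines did not overlap, and the difference was -1.11 (adjusted p = 0.0603, limma) and -0.995 after position adjustment (adjusted p = 0.0449), just under the fold that a call required. The core of the element that NRF2 binds, TGACNNNGC on either strand, was looked for in RefSeq promoter windows of build GRCm38.p6, from 250 bases before to 50 after a gene's start. It was found in 4 of the 29 members with a window, or 13.8%, and in 14.0% of all 27025 genes. The 4 were Aldh9a1, Aldh1a2, Akr1c19 and Akr1cl, of which Aldh9a1 was well above background on all arrays outside the middle. Its match, with the motif in capitals, lies at chr1:167349894-167349923 on the plus strand and is shown as an example of what was counted.
Aldh9a1: ttaattatgcTGACTAGGCccaagctactc

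**Figure D5:**
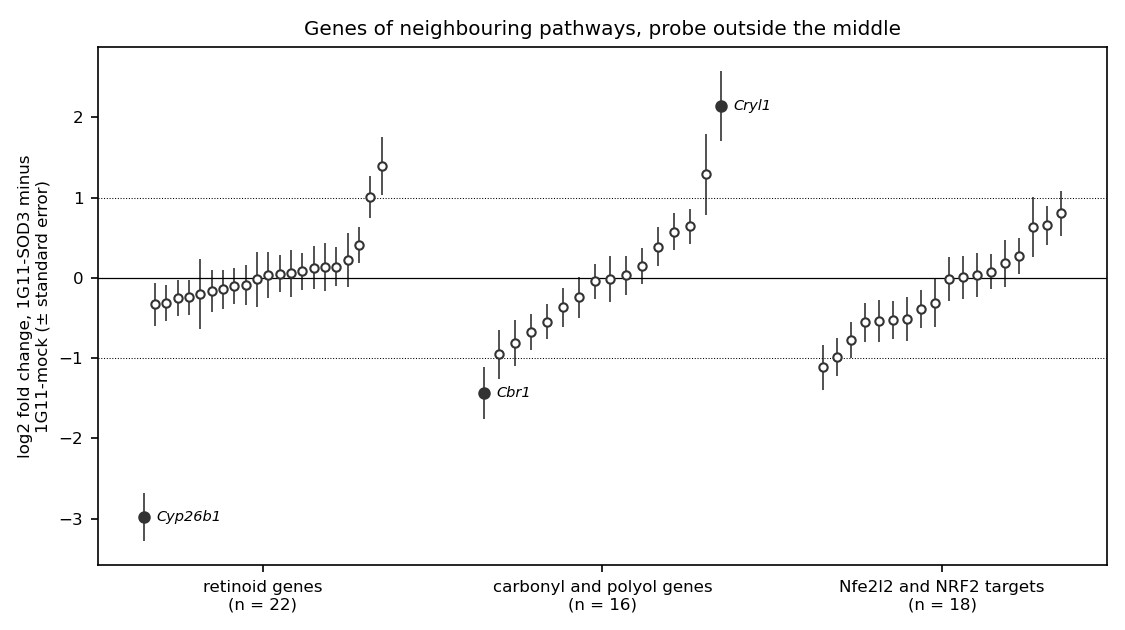
Log2 fold change, 1G11-SOD3 minus 1G11-mock (y axis, with its standard error), of the 22 retinoid genes, 16 carbonyl and polyol genes and 18 genes of the NRF2 list with a probe outside the middle, sorted within each list. Filled and named points were called, and dotted lines mark a 2-fold change. Cyp26b1 and Cbr1 were called lower and Cryl1 higher.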

How the data were processed

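Per the labels and the study's methods, Cy3-labeled cRNA was hybridized to Agilent SurePrint Mouse G3 arrays. The authors deposited Agilent Feature Extraction 10.7.3.1 output with spot intensities that were not normalized between arrays, and a table of log2 values, which they had corrected with normexp and quantile normalized and whose median was 7.52 on each array. Here the mean intensity and local background median were corrected with normexp (offset 50), control and outlier spots were left out, and log2 values were quantile normalized. The spots of a probe were averaged, apart for the middle of the array. Agilent's flag told whether a spot was well above background. The lines were compared by limma 3.58.1 in R 4.3.3 with Benjamini-Hochberg adjustment over all 55961 entries, and a call required an adjusted p under 0.05 with a fold above 2. The position surface was fitted with mgcv 1.9.3 to deviations from the mean of the 6 arrays, with the probes printed 10 times held out. It was fitted to log2 values before quantile normalization, which was done after the surface was taken off. The fit was tested on simulated data with 100 changed entries. It found 48 of them at a log2 size of 1.5 and 80 at 2.5, with 3 false ones each time, so changes of moderate size can be missed. The false ones are a count from simulated data and do not give the share of false calls on these arrays. Figures were drawn with matplotlib 3.10.9 in Python 3.11.15.

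The members and lists were chosen with earlier results of these data known. Named members were those called or with an adjusted p under 0.05 outside the middle, Akr1b10, the 6 genes with the highest mean intensity outside the middle and those called in the middle. The remaining members are given briefly by role, and genes of the other lists were named where called. A few further genes of these lists were named after their values were seen. A gene of these lists was represented by its brightest probe outside the middle. The alternatives were another background correction, offset, intensity or scaling, control or outlier spots kept, dim probes left out, a variance trend, a replicate block, the deposited table, all copies averaged, the position surface and the middle left out. The number of arrays limits the precision.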

Additional observations from a re-analysis of the deposited data

How the results depend on the processing

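The single call outside the middle (1 entry) became 2 with median pixel intensity, cyclic loess, the deposited table or the position surface taken off, 3 with the processed signal, and 0 to 2 when 1 array was left out. The 3 calls in the middle became 1 with no background correction, the processed signal or the position surface. Over the whole array, 1690 calls became 1096 with no background correction, 11205 with the processed signal, 2696 with scaling to the 75th percentile, 765 with the middle left out before normalization, and 780 to 1865 when 1 array was left out. The median of all entries was -0.03, and -0.52 and -0.33 with the processed signal and the 75th percentile. Single members did not all move with it. With the processed signal 9966 of the calls were lower and 1239 higher, against 595 and 1095 as reported. The other splits of higher and lower calls were 857 and 392 with an offset of 16, 1084 and 459 with cyclic loess, 414 and 351 with the middle left out and 656 and 1620 with the position surface.

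The 1 retinoid call became 5 with the processed signal, 3 with the 75th percentile or the middle left out, 2 with cyclic loess, dim probes left out, the replicate block or the position surface, and 1 to 2 without 1 array. The 2 carbonyl and polyol calls became 1 with no background correction, an offset of 16, cyclic loess, a variance trend, the position surface or the middle left out, and 0 to 1 without 1 array. The count of 0 in the NRF2 list became 1 with median pixel intensity, the processed signal, dim probes left out or the deposited table, and 0 to 1 without 1 array. Some differences changed sign: Akr1a1 (from -0.48 to 0.16) and Aldh16a1 (from -0.20 to 0.42) with the processed signal, Aldh1a1 with the 75th percentile (0.12), cyclic loess (0.014) or the middle left out (0.094), and Akr1b10 outside the middle with the position surface (from 0.70 to -0.070). Without 1 array, the Akr1b3 probes ran from -0.17 to 0.27 and from -0.0057 to 0.46, and Aldh1a1 from -0.53 to 0.31. The cause was not tested.

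The replicate numbers follow the slide columns. Arrays of the same number deviated together with r = 0.167, 0.225 and 0.0872 across entries, so that not every pair passed 0.1 and the numbers were not taken to pair the arrays, although each array correlated best with its own number. The replicate block gave 1489 calls higher and 789 lower and left the count of members called outside the middle at 1. With it, the adjusted p was 0.00439 for Cbr1, 0.00323 for Cryl1 and 0.00540 for the first Aldh6a1 probe (limma). The second Aldh6a1 probe still did not pass (adjusted p = 0.0821, limma). The standard error of Aldh1a1 was 0.257 with the replicate block and 0.391 as reported.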
